A study of Mus musculus with 12 samples.

Results

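This report describes the comparison of the group coded G4 with the group coded G3 in mouse soleus muscle, gene by gene. Its members are all 28997 genes of the authors' deposited table for that comparison, the same 28997 genes that the series lists in all. The study sequenced polyadenylated RNA of the soleus from 12 mice in 4 groups of 3. Every mouse carried a Cre recombinase driven by Cdh5, the gene of VE-cadherin, so that recombination is directed to endothelial cells. The groups were Cdh5cre-WT mice on chow diet, Cdh5cre-WT mice on high fat diet, Cdh5Cre-NOX1CKO mice on chow diet and Cdh5Cre-NOX1CKO mice on high fat diet, each kept on the diet for 8 weeks. The labels give no age, sex or batch, and they do not say which genotype and diet stand behind the codes G1 to G4. The codes are therefore kept throughout, with 3 mice in G3 and 3 in G4, and no difference is assigned to the knockout or to the diet.

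The soleus is a postural muscle of the hind limb that works almost without pause, and it relies on mitochondria that burn fatty acids and glucose. Its tissue holds muscle fibres of the slow and the fast oxidative types together with capillary endothelium, fibroblast-like progenitors, tendon cells, macrophages and nerve endings, and a bulk RNA measurement adds all of them up. In such a sum, fewer cells of one type and less RNA per cell cannot be told apart. NOX1, an NADPH oxidase that makes superoxide, was the conditional target, and the series title asks about its role in endothelium, in obesity and for muscle mitochondria.

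Reads came to a mean of 24.9 M per library after normalisation. The tables hold one total and one fold change per gene, so group levels are given below as normalised reads per library, rebuilt from the total and the fold changes. Their standard errors (SE) are the ones implied by the deposited p-values. For 5192 genes of low abundance with a total of at least 100, the whole reads of each library could also be worked out, and these are called recovered reads. Libraries are numbered within a code by rising size factor, which does not tie them to a labelled mouse. Among the recovered genes of higher total, deviations from the 12-library mean gave little sign of shared variation within any code. Genes with a total above 1500 were not covered. Across 1591 genes Spearman's rho between 2 libraries of G4 was 0.04, 0.00 and -0.21, the last for libraries 2 and 3, and in G3 it was 0.03, -0.03 and 0.08. Between the codes, G4 library 3 had 0.14 and 0.09 with G3 libraries 2 and 3, and -0.19 with G3 library 1. The other G4 libraries had -0.16 to -0.01 with the G3 libraries. Deviations from a common mean run slightly negative by construction.

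Fibre markers matched the label of a slow and oxidative muscle. Per kilobase of transcript, the mean level over all groups was 1611 CPM (reads scaled to library size) for Myh7, the slow myosin heavy chain, 2462 for Myh2, the fast oxidative form, and 201 for Myh4, the fast glycolytic form. Markers of neutrophils were close to absent, with 0 of 9 listed genes reaching a total of 100, and 2 of 14 markers of T and B cells did. Nox1 itself gave 2, 1 and 2 reads in the G3 libraries and 0, 1 and 4 in the G4 libraries. A difference in Nox1 was not detectable at this depth, and the gene cannot check the labels. Cdh5 stood at 4508 normalised reads in G3 and 4619 in G4, with a log2 fold change of 0.04 ± 0.14 (SE) in the authors' deposited table and a 95% interval from -0.24 to 0.32.

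G4 and G3 differed in few genes. Of the 17752 genes with an adjusted p in the authors' deposited table, 7 passed 0.05, which is 0.0394% of them. All 7 were lower in G4. A called gene is below one of these 7. The total reached 100 or more in 15494 genes, of which 749 had an unadjusted p under 0.05, a share of 4.83%, with 365 higher and 384 lower in G4. That threshold passes 5% of genes where nothing differs. The median log2 fold change was 0.00, and the middle 90% of genes lay between -0.42 and 0.40. The median gene had an SE of 0.18, so a difference under 0.35 on the log2 scale stayed within its own 95% interval in the typical gene.

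**Figure D1:**
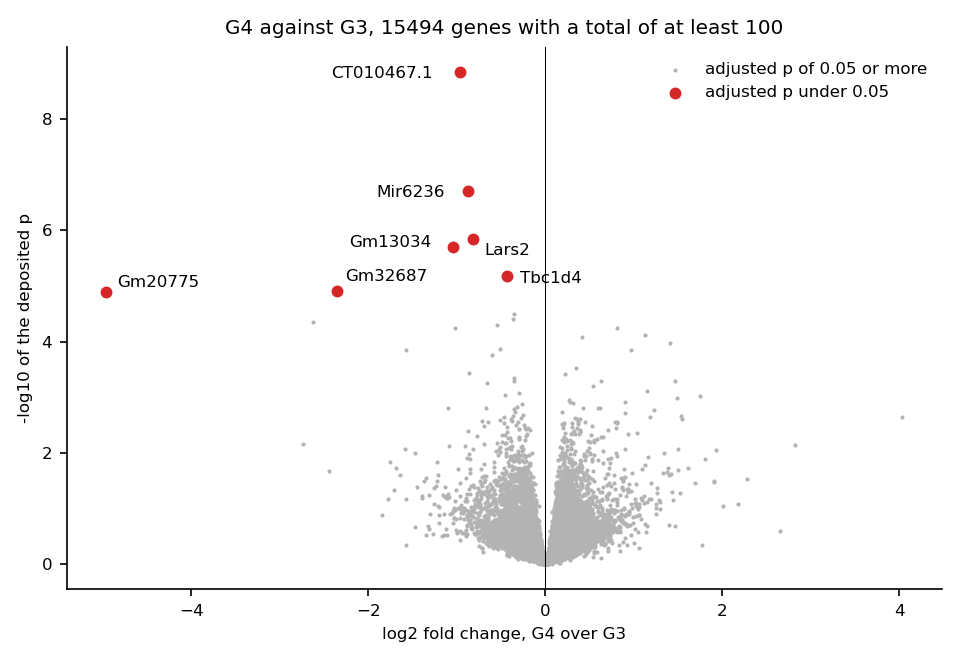
Volcano plot of G4 against G3. Each point is one of 15494 genes with a total of at least 100; the x axis is the log2 fold change of G4 over G3 and the y axis the -log10 of the deposited p. The 7 red points passed an adjusted p of 0.05 and all lie to the left of 0, from -0.43 for Tbc1d4 to -4.96 for Gm20775.

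The called genes are taken in 3 sets: CT010467.1, Mir6236 and Lars2, then Tbc1d4, then 3 copies of other genes. The strongest was CT010467.1, annotated as rRNA on chromosome 17 (39846353 to 39848827, minus strand, GRCm38). Its level was 874079 normalised reads per library in G3 and 449048 in G4, beside 884423 in G1 and 676160 in G2. It therefore held 3.46% of all reads in G3 and 1.80% in G4. The log2 fold change was -0.96 ± 0.16 with adjusted p 2.48e-05 in the authors' deposited table. The kit selects RNA with a poly(A) tail, which rRNA largely lacks. Among 9 measured RNAs without such a tail or kept in the nucleus, CT010467.1 included, 4 lay above 0 and 5 below, with a median of -0.01. At an unadjusted p under 0.05 in the authors' deposited table, 2 of them were lower, CT010467.1 and Rn7sk, and 0 higher. Whether the carry-over of rRNA differed between preparations was not tested. CT010467.1 also shares 1244 of its 1849 bases with Gm42418, in the opposite orientation, and 923 with AY036118, in the same orientation, at 100% identity. Neither has values here, and their positions in the genome were not compared with that of CT010467.1. Whether any reads were divided with them cannot be told.

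Mir6236, annotated as a microRNA gene on chromosome 9 (110281287 to 110281409), fell beside it. Its level was 3508 normalised reads in G3 and 1912 in G4, with a log2 of -0.88 ± 0.17 and adjusted p 0.00170 in the authors' deposited table. Lars2 (chromosome 9, 123366927 to 123462666), the enzyme that loads leucine onto its tRNA in mitochondria, had 15717 in G3 and 8957 in G4, with -0.81 ± 0.17 and adjusted p 0.00834 in the authors' deposited table. In both genes G2 lay between, with 2521 and 10970 normalised reads, and G1 lay near G3, with 3302 and 15247. All 3 RNAs thus kept 1 order of the group levels, G4 lowest and G2 next, while G1 and G3 lay within 1 SE of each other. For G4 over G2 the authors' deposited table gave a log2 of -0.59 for CT010467.1, with an adjusted p of 0.0203. Mir6236 had -0.40 and Lars2 had -0.29 there, with adjusted p-values of 0.344 and 0.637, so neither passed. The mature sequence of miR-6236 is shown because the gene is counted here in a library of polyadenylated messenger RNA, in which a mature microRNA is too short to be captured as such. RefSeq places it on chromosome 9 within the annotated gene (GRCm38.p6, plus strand, chr9:110281353-110281371), and the capitals mark the seed, bases 2 to 8, which pairs with targets.
mmu-miR-6236: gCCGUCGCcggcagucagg

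The antisense RNA Gm15564 on chromosome 16, singled out after its values were seen, was also lowest in G4, and since it was chosen for that order it is no support for it. Its recovered reads, normalised, were 52.7, 74.4 and 67.1 in the G3 libraries and 33.0, 30.5 and 33.1 in those of G4. G1 had 70.9, 70.8 and 65.7, and G2 had 51.7, 51.6 and 47.2. Every G4 library was below the other 9, as in 0.828% of the 5192 genes with recovered reads. Its log2 was -1.02 ± 0.25 with adjusted p 0.0760 in the authors' deposited table, so it did not pass. The other mitochondrial synthetases did not follow Lars2. Of 17 in the list, 9 lay above 0 and 8 below, with a median of 0.01, and apart from Lars2 none had an unadjusted p under 0.05. Pars2, which loads proline, had -0.30 in the authors' deposited table and did not pass. The 2 rRNAs of the mitochondrial ribosome, mt-Rnr1 and mt-Rnr2, had 0.01 and -0.01 in the authors' deposited table, neither of which passed. Rn7sk, an abundant small nuclear RNA without a poly(A) tail, had -0.51 with an unadjusted p of 0.00787 and adjusted p 0.876 in the authors' deposited table.

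**Figure D2:**
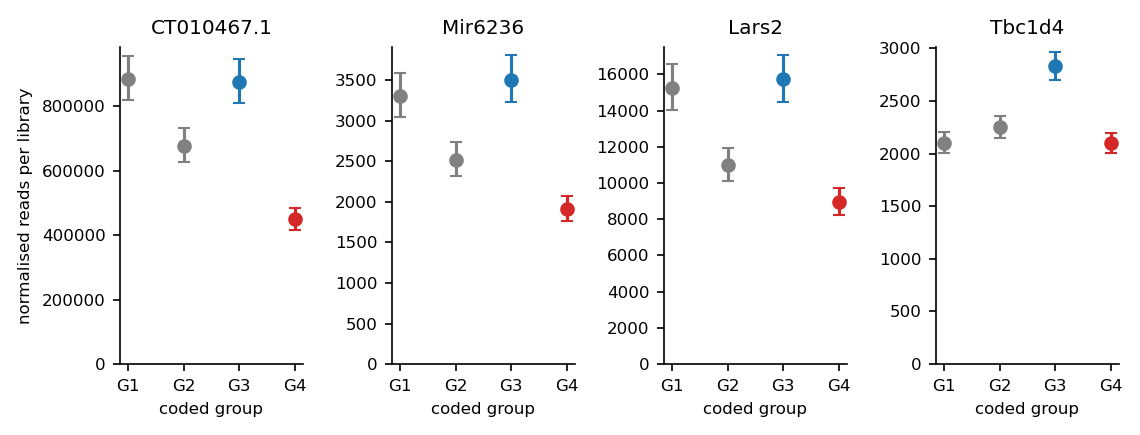
Group levels of 4 called genes. The y axis is the estimated normalised reads per library in each coded group, and bars are 1 SE of the group mean under the dispersion implied by the deposited values. In CT010467.1, Mir6236 and Lars2 G4 is lowest and G2 next, while in Tbc1d4 G3 stands above the other 3 groups.

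Tbc1d4 (chromosome 14, 101442360 to 101609191), also known as AS160, is a GTPase-activating protein that holds GLUT4 vesicles inside the fibre until insulin or contraction leads to its phosphorylation. Its level was 2829 normalised reads in G3, against 2098 in G4, 2103 in G1 and 2248 in G2. G4 was lower than G3 by a log2 of -0.43 ± 0.10, with adjusted p 0.0238 in the authors' deposited table and a 95% interval from -0.62 to -0.24. In the order of the groups G3 was the highest. G4 was within 1 SE of G1, and against G1 the level of G3 was higher by 0.43 with adjusted p 0.00600 in the authors' deposited table. Tbc1d4 was called for its difference between G4 and G3. The comparison of G3 with G1 shares the G3 libraries, so it is not independent of that call. For G4 over G2 the authors' deposited table gave a log2 of -0.10, with an adjusted p of 0.858. After removal of the trend on length, GC content and total described below, G4 against G3 gave -0.39 with an adjusted p of 0.0712, which ends the call. The difference of G4 from G3 minus that of G2 from G1 did not pass for Tbc1d4, with an adjusted p of 0.376.

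Other genes of insulin signalling and glucose uptake did not move with Tbc1d4. Of 24 measured, 16 lay above 0 and 8 below, Tbc1d4 was the only one called, and the median was 0.05. Slc2a1, the basal glucose transporter GLUT1, had 0.41 with an unadjusted p of 0.0165 in the authors' deposited table, and Pik3r2, a regulatory subunit of PI3-kinase, had -0.22. Neither passed the adjusted threshold.

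The remaining 3 called genes each have a near-identical copy in another annotated gene, and reads that fall on shared bases can be assigned to either. Lars2 matches 3 other genes, but only over 103 to 123 bases at 90.3% to 91.9% identity. Of these, Nalcn had 0.35 and Ankrd44 had -0.42 in the authors' deposited table, neither of which passed, and the third has no values here. Gm32687 (chromosome 10, 81863934 to 81881081) and Zfp433 (chromosome 10, 81704825 to 81726686) are annotated as protein-coding; the latter belongs to the zinc finger family of DNA-binding proteins. Their reference transcripts align over 2379 bases with 99.874% identity. They differ at 3 bases, all in the coding part, and share 1 identical stretch of 1030 bases. The windows of 41 bases around each difference are printed because within this alignment only reads covering a differing base can tell the genes apart. Sequences are those of the GENCODE M21 transcripts on GRCm38, 5′ to 3′, with the differing base in capitals. Positions count from 1 at the 5′ end of the transcript, and each name gives the base of Gm32687 first.
Gm32687 at A392G: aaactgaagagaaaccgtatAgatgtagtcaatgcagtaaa
Zfp433 at A392G: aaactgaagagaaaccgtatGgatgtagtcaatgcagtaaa
Gm32687 at A683G: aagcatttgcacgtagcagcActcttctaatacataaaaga
Zfp433 at A683G: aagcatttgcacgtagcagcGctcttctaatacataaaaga
Gm32687 at T1349C: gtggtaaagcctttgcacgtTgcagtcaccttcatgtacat
Zfp433 at T1349C: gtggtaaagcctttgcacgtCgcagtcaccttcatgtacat

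In recovered reads, Gm32687 had 75, 71 and 45 reads in the G3 libraries and 21, 4 and 7 in the G4 libraries. Zfp433 ran the other way, with 47, 72 and 93 reads in G3 and 92, 137 and 120 in G4. After normalisation every G4 library was below every G3 library for Gm32687 and above every one for Zfp433. Of the 5192 genes with recovered reads and a total of at least 100, 6.3% had all G4 libraries below all G3 libraries and 4.33% had them above, 10.6% in all. Gm32687 was called, with a log2 of -2.36 ± 0.54 and adjusted p 0.0317 in the authors' deposited table. Zfp433 had 0.96 ± 0.25 and adjusted p 0.133 in the authors' deposited table and was not.

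The sum of the pair did not separate the groups. It was 131.8 ± 18.6 normalised reads in G3 and 144.1 ± 9.02 in G4 (SD, n = 3 each), with a two-sided exact permutation p of 0.3, where 0.1 is the smallest that 3 against 3 allows. Gm32687 made up 47.9% ± 14.5 of the sum in G3 and 8.98% ± 8.43 in G4, given as a description since Gm32687 was chosen for its difference. G1 and G2, at 53.4% ± 8.64 and 60.7% ± 13.3, were on the side of G3.

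**Figure D3:**
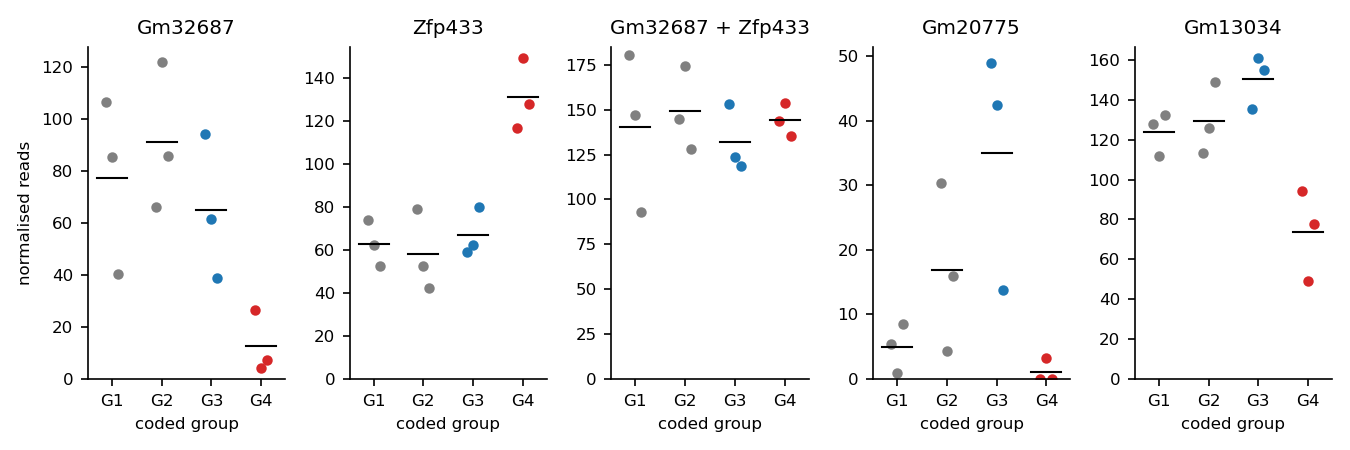
Recovered reads of called genes with a near-identical copy. Each point is one library (3 per coded group), the y axis is reads divided by the size factor, and lines are group means. Gm32687 and Zfp433 part in opposite directions in G4 while their sum stays between 118.7 and 153.4 in the 6 libraries of G3 and G4.

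Gm20775 is an unprocessed pseudogene on chromosome Y (10641257 to 10643107) that matches Rmi1, a gene of the complex that dissolves recombination intermediates, with 99.73% identity and 5 mismatches over 1851 bases. It had 39, 49 and 16 reads in the G3 libraries and 0, 3 and 0 in the G4 libraries. That is 104 reads against 3, a normalised ratio of 29.4 with an exact 95% interval from 9.79 to 145 that covers counting error only. In G1 it had 5, 1 and 9 reads and in G2 30, 5 and 20, between the other groups on average. Rmi1 had 161.7 normalised reads in G3 and 188.1 in G4, with a log2 of 0.22 ± 0.17 in the authors' deposited table. The sum of both was 196.7 in G3 and 189.2 in G4, a log2 ratio of -0.06.

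The 4 other genes of chromosome Y examined lay much closer to 0. Ddx3y, a helicase, had 1672 normalised reads in G3 and 1495 in G4, and Eif2s3y, a subunit of a translation initiation factor, had 867 and 902. In the authors' deposited table their log2 values were -0.16 and 0.06. The histone demethylase genes Kdm5d and Uty had -0.24 and -0.14 there, so 3 of the 4 lay below 0, and none passed.

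Gm13034 (chromosome 4, 146067752 to 146070928) is a processed pseudogene of Smarca5, the ATPase of a chromatin remodeller, and matches it with 97.2% identity. Its recovered reads, normalised, were 135.6, 160.8 and 154.8 in G3 and 94.0, 49.0 and 77.8 in G4. The groups did not overlap, as in 10.6% of the 5192 genes with recovered reads. The log2 was -1.04 ± 0.22 and the adjusted p 0.00896 in the authors' deposited table. Smarca5 had 908.8 normalised reads in G3 and 868.1 in G4. Gm13034 with its 6 copies in the table summed to 1607 in G3 and 1532 in G4, a log2 ratio of -0.07.

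With the recovered reads and limma in place of the deposited test, none of these 3 genes passed, with adjusted p-values of 0.0748 for Gm13034 and 0.0788 for both Gm32687 and Gm20775 (limma, 3 libraries a group). That fit called 0 of 5192 genes at an adjusted p of 0.05 and had 300 at an unadjusted p under 0.05, a share of 5.78%. The called genes CT010467.1, Mir6236, Lars2 and Tbc1d4 have totals too high for their reads to be recovered, so this check does not reach them.

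By rank of p, 12 named genes above 0 and 12 below were taken by rule, and 21 of these 24 did not pass. The first above 0 was Abra, a muscle activator of SRF signalling, at 6004 normalised reads in G3 and 10542 in G4, with 0.81 ± 0.20 and adjusted p 0.0760 in the authors' deposited table. Its group levels were 6027 in G1 and 5292 in G2, so G4 stood above all. Vgll2, a cofactor of TEAD factors in muscle, had 0.54 and Mybph, a myosin binding protein, had 1.75 in the authors' deposited table. Mybph had 18.8, 11.2 and 13.8 normalised reads in G3 and 74.96, 45.7 and 25.6 in G4. These did not overlap, as in 10.6% of the 5192 genes with recovered reads.

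The others above 0 had mixed functions. Tiam2, an activator of Rac, had 1.13, Eln, which encodes elastin, had 0.90, and the transcriptional repressor Snai3 had 0.63 in the authors' deposited table. Pabpn1, a nuclear poly(A)-binding protein, had 0.35, Erdr1 had 1.46, Zfp433 is described above, and the ribosomal protein genes Rpsa and Rpl41 had 0.23 and 0.27 in the authors' deposited table. Their adjusted p-values ran from 0.0760 for Abra to 0.584 for Eln.

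Below 0, the 12 held Mir6236, Lars2, Tbc1d4 and, not all adjacent in rank, 3 transporters of the ABCA family, which move lipids across membranes. Abca8b had 652 normalised reads in G3 and 512 in G4, Abca2 had 1005 and 779, and Abca9 had 347 and 228. In the authors' deposited table their log2 values were -0.35, -0.37 and -0.60, with adjusted p-values of 0.0716, 0.0760 and 0.155. The solute carrier Slc45a4 had -0.55, Lum, the matrix proteoglycan lumican, had -0.52, and Mamstr, a coactivator of MEF2 and SRF, had -0.86 in the authors' deposited table. Sytl4, a synaptotagmin-like protein of vesicle docking, had 30.1, 37.2 and 40.4 normalised recovered reads in G3 and 15.2, 10.9 and 10.7 in G4. These did not overlap, as in 10.6% of the 5192 genes with recovered reads, and its adjusted p was 0.133 in the authors' deposited table. Hmcn2, a matrix hemicentin, and Ston2, an endocytic adaptor, both had -0.35 in the authors' deposited table.

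Gene lists were read against these 15494 genes, of which 50.9% lay above 0 with a median of 0.00, and of which 2.36% had an unadjusted p under 0.05 and were higher and 2.48% lower. Of 54 lists, 50 had at least 5 measured members. Only 3 lists held a called gene, namely Tbc1d4, Lars2 and CT010467.1. What follows are therefore medians and counts of small differences, with no test of a list.

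Values changed with transcript length, which bears on every list. Cutting the genes into deciles by length, the median log2 was 0.07 in the shortest decile (57 to 874 bases), where 65.6% of genes lay above 0, and -0.09 in the longest (6469 bases and more), where 25.4% did. Between these it fell from each decile to the next. In G2 against G1 the same end deciles had medians of 0.00 and 0.03. A spline on length, GC content and total took 15.96% of the weighted variance in G4 against G3, and length alone 12.4%. Medians after removal of that trend are given as trend-removed.

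By library, the length pattern was not shared by all 3 mice of G4. For recovered genes, the median deviation of short transcripts (the shortest 2 deciles) minus that of long ones (the longest 2 deciles) was -0.10, -0.12 and -0.12 in the G3 libraries. It was 0.18 and 0.18 in G4 libraries 1 and 2, and -0.15 in G4 library 3, below all G3 libraries. The group means of -0.11 ± 0.01 and 0.07 ± 0.19 (SD, n = 3 each) gave a two-sided exact permutation p of 0.4. Without G4 library 3, the Spearman's rho of log2 with length across recovered genes went from -0.18 to -0.24, to -0.12 without G4 library 1 and to -0.11 without G4 library 2. Its cause was not tested.

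**Figure D4:**
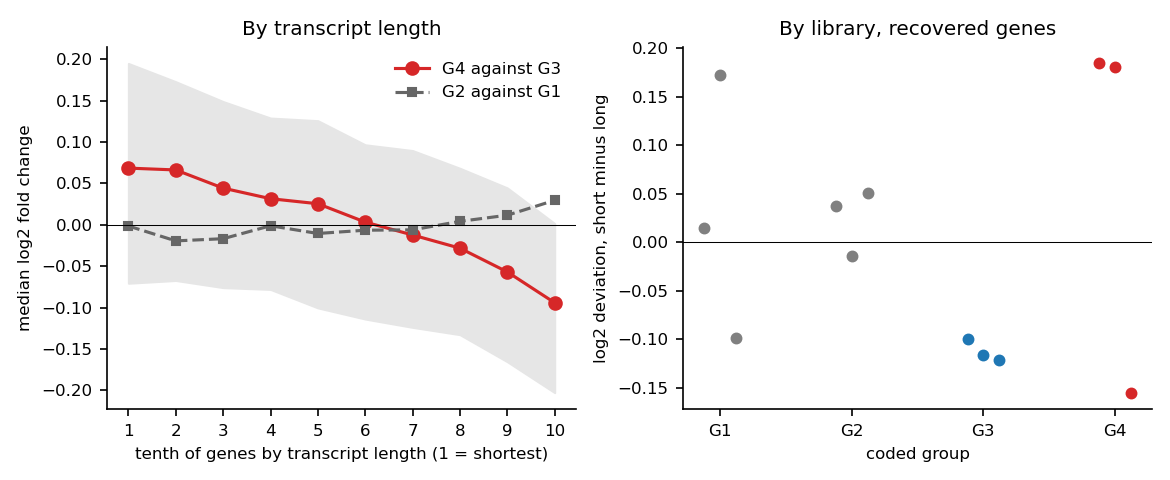
Transcript length and the difference of G4 from G3. Left, median log2 fold change by decile of transcript length for G4 against G3 (circles, shading from the 25th to the 75th percentile) and G2 against G1 (squares); the circles go from 0.07 to -0.09. Right, for recovered genes, the log2 deviation of short minus long transcripts in each library; 2 G4 libraries lie at 0.18 and the third at -0.15.

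Mitochondrial genes were shifted little. Among nuclear subunits of respiratory complex I, which takes electrons from NADH, 35 of 37 lay above 0 with a median of 0.07. For complexes II to V 40 of 42 did, with 0.06. These transcripts are short, with a median length of 971 and 759 bases, and the trend-removed medians were -0.01 and 0.00, with 14 of 37 and 19 of 40 above 0. Ndufa11, a subunit of complex I, had 0.17 with an unadjusted p of 0.0448 in the authors' deposited table, the smallest of that list. Atp5g2, which encodes the c-ring of ATP synthase, had 1.55, with 6.28, 19.0 and 12.04 normalised reads in G3 and 24.1, 47.9 and 39.5 in G4. The other 41 genes of that list lay between -0.02 and 0.23. Atp5g2 is 1 of 3 genes for the same protein, and its groups did not overlap, as in 10.6% of the 5192 genes with recovered reads.

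Of the 13 messages of the mitochondrial genome 2 lay above 0, with a median of -0.03 and a range from -0.14 to 0.01. Mitochondrial ribosomal proteins had 63 of 77 above 0 with a median of 0.06 and 0.02 trend-removed. Enzymes of the TCA cycle and pyruvate dehydrogenase had a median of 0.01, and regulators of mitochondrial biogenesis and dynamics one of 0.05. Opa1, the fusion protein of the inner membrane, had -0.15, and Ppargc1a, the coactivator PGC-1alpha, had 0.81 in the authors' deposited table, and neither passed.

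Fatty acid oxidation, the breakdown of fatty acids to acetyl-CoA, lay slightly below 0. Of 26 measured genes 21 were below, 3 with an unadjusted p under 0.05, and the median was -0.07, or -0.10 trend-removed. Decr1, an auxiliary enzyme for unsaturated fatty acids, had 6548 normalised reads in G3 and 5908 in G4, and -0.15 ± 0.06 in the authors' deposited table. Hadh, a dehydrogenase of the spiral, had -0.14, and Cpt1b, which starts the import of long chains, had -0.15 in the authors' deposited table. The same list had medians of -0.09 for G2 against G1, 0.34 for G3 against G1 and 0.38 for G4 against G2. Comparisons that share a group are not independent.

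Targets of the lipid sensor PPAR had a median of 0.01 with 10 of 18 above 0. Angptl4, a secreted inhibitor of lipoprotein lipase, had 0.96 ± 0.92 in the authors' deposited table. In lipogenesis and triglyceride synthesis 11 of 17 lay below 0. Gpam, the first acyltransferase of triglyceride synthesis, had 13450 normalised reads in G3 and 9990 in G4, with -0.43 and adjusted p 0.706 in the authors' deposited table. In cholesterol synthesis and uptake 10 of 17 lay below 0, and Lss, which closes the sterol rings, had 92.9, 97.7 and 108.4 normalised recovered reads in G3 and 57.2, 78.3 and 69.3 in G4. The groups did not overlap, as in 10.6% of the 5192 genes with recovered reads, and its adjusted p was 0.811 in the authors' deposited table.

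Among ABC lipid transporters and genes of the sterol receptor LXR, 16 of 19 lay below 0, 5 of them with an unadjusted p under 0.05 and none above 0 so. The median was -0.13, and -0.12 trend-removed. Besides Abca8b, Abca2 and Abca9, the 5 were Abca8a with -0.30 and Abca1, the cholesterol exporter, with -0.41 in the authors' deposited table. The receptors themselves, Nr1h3 and Nr1h2, had 0.09 and 0.16, and Apoe, a target of them, had -0.01 in the authors' deposited table. The median of the list was 0.02 for G2 against G1.

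Glycolytic genes had 15 of 17 above 0 with a median of 0.16, which was 0.06 trend-removed. Pgam1, a phosphoglycerate mutase, had 0.44 and Eno1, an enolase, had 0.26 in the authors' deposited table, each with an unadjusted p under 0.05. Genes of glycogen metabolism had a median of 0.03. Cytosolic ribosomal proteins had 76 of 83 above 0, with 14 higher and 0 lower at an unadjusted p under 0.05, a median of 0.12 and a trend-removed median of 0.04. Their median transcript length was 914 bases. In 10 of them with recovered reads the summed level was 313.8, 322.5 and 334.6 in G3 and 374.8, 416.8 and 293.2 in G4. Among these 6 libraries G4 library 3, the one with the opposite length pattern, was the lowest. All 83 genes summed to 108731 normalised reads per library in G3. These 10, which have a low total, therefore do not stand for the list. With limma their median log2 of 0.11 became 0.03 without G3 library 1 or G4 library 2, and 0.26, 0.23 and 0.24 without G3 library 2, G4 library 1 and G4 library 3. Ribosomal protein genes have many near-identical pseudogenes, so the split of their reads is uncertain.

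Genes that respond to stretch through actin, MRTF and SRF had 14 of 17 above 0 and a median of 0.20, or 0.09 trend-removed. Abra led the list, Ccn1, a secreted matrix signal, had 0.59, and Srf itself had 0.20 in the authors' deposited table. Markers of slow fibres had 12 of 15 above 0 with a median of 0.11, and those of fast fibres 14 of 15 with 0.09, each 0.06 trend-removed. Both sets thus lay on the same side, and no member had an unadjusted p under 0.05. In the list of giant sarcomere genes and the dystrophin complex 14 of 21 were below 0, Ttn with -0.34 in the authors' deposited table, and the trend-removed median was 0.00.

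Muscle atrophy and glucocorticoid genes were split. The median was 0.12, or 0.07 trend-removed, Cebpb, a transcription factor, had 0.81, Mt2, a metallothionein, had 1.38, and Fbxo32, the ubiquitin ligase atrogin-1, had -0.34 in the authors' deposited table. Immediate early genes had a median of -0.07, or -0.13 trend-removed. Myc had 1.18 in the authors' deposited table, with 43.9, 51.0 and 49.0 normalised reads in G3 and 189.3, 64.2 and 75.7 in G4, so that G4 library 1 was high. Nr4a2, a nuclear receptor, had -1.78 in the authors' deposited table. Of 19 clock genes 15 lay below 0 with a median of -0.09 and none with an unadjusted p under 0.05.

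Interferon response genes had the highest median of the 50 lists, 0.23, and 0.26 trend-removed, with 26 of 29 above 0. Only Ifi27 had an unadjusted p under 0.05, with 0.30 ± 0.10 in the authors' deposited table. In the 9 members with recovered reads the summed level was 262.3, 302.6 and 283.0 in G3 and 499.3, 198.0 and 327.3 in G4. Library 1 of G4 was the highest of all 12, while library 2 of G4 was below all 3 G3 libraries. Isg15, a ubiquitin-like modifier induced by interferon, had 25.1, 22.5 and 30.96 normalised reads in G3 and 58.4, 22.9 and 30.9 in G4. In this gene library 1 of G4 was above all G3 libraries, while libraries 2 and 3 of G4 lay within their range. Over these 9 genes the median log2 of 0.19 with limma became -0.17 without G4 library 1, with 3 of 9 above 0, and 0.48 without G4 library 2, with 9 of 9. Leaving out a G3 library moved it to between 0.10 and 0.29.

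MHC class I and antigen processing genes had a median of 0.07 with 10 of 17 above 0. Heat shock and ER chaperones had 0.06, ATF4 targets -0.02, antioxidant and NRF2 targets 0.01, and the proteasome 0.04. In the NADPH oxidase family 8 of 14 genes were measured, 5 of them below 0. Nox4, the form of vessels and fibroblasts, had 80.3, 77.0 and 86.0 normalised reads in G3 and 54.6, 37.0 and 86.4 in G4. Cybb, the phagocyte oxidase NOX2, had 84.1, 87.3 and 84.3 in G3 and 63.5, 40.3 and 97.0 in G4. In both genes G4 library 3 was above all G3 libraries and the other two were below. Without G4 library 3 the median of the 7 members with recovered reads went from -0.18 to -0.47, with 0 of 7 above 0, and without G4 library 2 to 0.00.

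Cell type markers were spread on both sides of 0. Endothelial markers had 18 of 20 above 0, a median of 0.10, and a summed level of 33378 normalised reads in G3 and 36384 in G4. Eng, a TGF-beta coreceptor of vessels, had 0.46 with an unadjusted p of 0.0112, and Ramp2 and Pecam1 had 0.26 and 0.22 in the authors' deposited table. Vwf, the clotting factor stored by endothelium, had -0.28 in the authors' deposited table. The list of angiogenesis and hypoxia, with 13 of 21 above 0, had Angpt1 at -0.42 and Fgf2 at -0.41 in the authors' deposited table.

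Markers of fibro-adipogenic progenitors and fibroblasts had 10 of 12 below 0 with a median of -0.17, or -0.18 trend-removed, and a summed level of 25057 in G3 and 21839 in G4. Lum led them, and Smoc2, a matricellular protein, had -0.34 in the authors' deposited table. Extracellular matrix genes had 26 of 32 below 0, with a median of -0.16 and a trend-removed median of -0.12. Tnxb, a tenascin, had -0.26 in the authors' deposited table, while Eln at 0.90 lay on the other side. Tenocyte markers had 7 of 8 below 0 with a median of -0.21. Matrix genes and fibroblast markers share members, so these counts are not separate evidence, and what part fewer cells have in them was not tested.

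Macrophage markers had the lowest median of the 50 lists before removal of the trend, -0.25, and -0.21 after it, with 11 of 14 below 0 and a summed level of 2576 in G3 and 2123 in G4. Csf1r, the receptor for the macrophage growth factor, had -0.42 with an unadjusted p of 0.0393 in the authors' deposited table, and Mrc1 and Lyz2 had -0.45 and -0.39. Over the 4 members with recovered reads the libraries overlapped, at 106.7, 131.4 and 130.7 in G3 and 86.4, 64.2 and 167.4 in G4. Without G4 library 3 the median of these 4 went from -0.31 to -0.83, without G4 library 2 to 0.15 and without G3 library 2 to -0.15. Adgre1, which encodes F4/80, had 37.7, 50.2 and 58.5 in G3 and 25.4, 26.1 and 48.0 in G4.

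The other cell types gave medians of -0.19 for lymphatic endothelium (7 markers), -0.20 for erythroid cells (6, at -0.30 the lowest list of the 50 after removal of the trend), 0.03 for smooth muscle and pericytes (12), 0.03 for adipocytes (12), -0.02 for satellite cells (11) and -0.03 for Schwann cells (12). Acta2, the smooth muscle actin, had 0.39, Fabp4, a fatty acid binding protein of adipocytes and endothelium, had 0.29, and Cdh19, a cadherin of Schwann cells, had 0.79 in the authors' deposited table. Each had an unadjusted p under 0.05, and none passed the adjusted threshold.

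**Figure D5:**
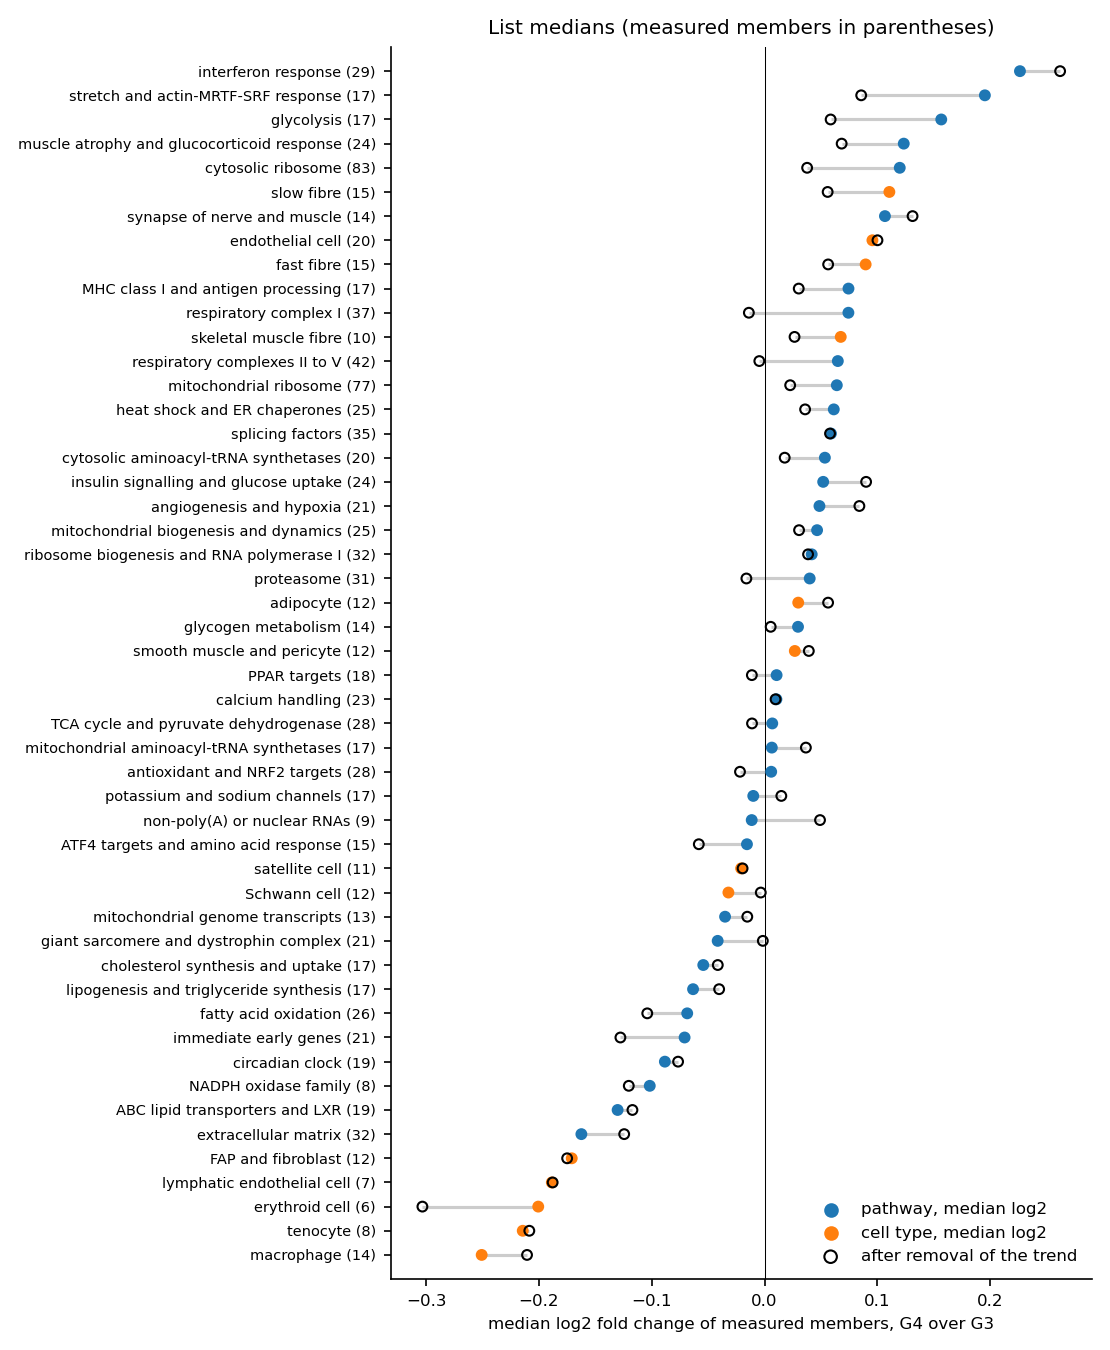
Medians of the 50 gene lists with at least 5 measured members. The x axis is the median log2 fold change of G4 over G3; filled points are the measured values (pathways and cell types in 2 colours) and open circles the values after removal of the trend on length, GC content and total. They run from -0.25 for macrophage markers to 0.23 for the interferon response, and complex I goes from 0.07 to -0.01 on removal of the trend.

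By transcript class, the 1616 processed pseudogenes had a median of 0.04, with 55 higher and 15 lower at an unadjusted p under 0.05, and a trend-removed median of -0.01. The 12835 protein-coding genes had 0.00, with 290 higher and 354 lower. The 253 antisense RNAs had a median of 0.12, trend-removed 0.11, with 161 above 0 and a median SE of 0.41.

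The difference of G4 from G3 was set against that of G2 from G1, a pair of groups that shares none with it. Of 15494 genes 1 passed an adjusted p of 0.05 for the difference between both, 0.00645% of those tested. This was Gm20775, at -4.96 in G4 against G3 and 1.77 in G2 against G1, a difference of -6.73 ± 1.43 with an adjusted p of 0.0357. The 3 RNAs CT010467.1, Mir6236 and Lars2 lay below 0 in both pairs, at -0.39, -0.39 and -0.47 in G2 against G1, and their differences did not pass.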

How the data were processed

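Polyadenylated soleus RNA of 12 mice (3 per group) was sequenced with a stranded KAPA kit, per the labels' protocols. The submitters' processing notes name edgeR without a version, RSEM 1.2.15, Bowtie2 2.1.0 and the build mm10 or GRCm38, with no role or order. The authors deposited 4 tables of comparisons with a total (a signal: reads over size factors, summed over the 12 libraries), a p-value, an adjusted p-value (blank for 11245 genes of G4 against G3, kept blank), a signed fold ratio and a log2 fold change per gene. The table of G2 against G1 lists only 15652 genes, none above a log2 of 0. Its other values were rebuilt from the remaining 3 tables, which differed by at most 1.0e-14 from the 7792 listed values of well-measured genes. The tables hold 0 columns of values per library, so the planned count test was not run and the deposited p-values were used as the authors gave them.

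SEs are the log2 divided by the normal deviate of its p. They follow a model with one dispersion per gene, since the SE of G3 against G1 was predicted from that of G4 against G3 with a median difference of 0.000382%. Size factors (0.797 to 1.16 in G3, 0.787 to 0.938 in G4) are those of genes seen as 1 read. Whole reads were recovered for genes with totals from 20 to 1500 as the single whole-number solution of the total, 3 log2 values and 3 p-values, which 8496 of 9443 genes had. On simulated data 592 of 600 had one solution and all 592 were right. These reads were tested with limma 3.58.1 in R 4.3.3 on log2 of reads plus 0.5 over the size factor. On simulated data for G4 against G3 with 15494 genes, the adjusted test found 83 of 100 genes at a fold of 2 and 97 of 100 at a fold of 4, with 11 false calls. That test was given the dispersions used to draw the reads, which are not known for real data. For limma on the simulated reads themselves, without the recovery step, it was 9 of 32 and 22 of 28 among 5761 genes, with 0 false calls.

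The trend was fitted with natural splines of 4 degrees of freedom on transcript length, GC content and total, over the 15178 of 15494 genes matched to GENCODE M21 (98.0%). Near-identical copies share at least 100 bases at 90% identity. Named genes are the called genes, the 12 with the smallest p on each side of 0 (unnamed clones and pseudogenes left out), up to 3 members per list by p, Nox1, Cdh5, and copies of called genes; other genes named (Gm15564, genes of chromosome Y and further list members) were chosen after their values were seen. Some genes that the rule takes are not reported here. The members and lists were chosen with earlier results of these data known. None of the 29 histone symbols listed was measured. The labels name separate animals.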

Additional observations from a re-analysis of the deposited data

Results flagged for a closer look

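Gm20775 differed between the 2 pairs of groups. Its log2 was -4.96 in G4 against G3 and 1.77 in G2 against G1, and the test of the difference itself gave -6.73 with an adjusted p of 0.0357 over 15494 genes (normal test on implied SEs). It rests on few reads, 104 in G3 and 3 in G4, and on a gene that differs from Rmi1 at 5 of 1851 aligned bases. In G1 the libraries had 5, 1 and 9 reads and in G2 30, 5 and 20.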

How the results depend on the processing

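The count of called genes was 5 when adjusted over every gene with a p and 5 after removal of the trend, 6 with a fold of at least 1.5, 7 when adjusted over totals of at least 100 and 7 when centred on the median. It was 4 at an adjusted p of 0.01, 15 at 0.1, of which 3 were higher in G4, and 0 with limma on the recovered reads, a test of 5192 genes that holds only 3 of the 7 and was chosen after seeing the data. Leaving out one library at a time, that fit called 0 to 3 genes. It called Gm13034, Gm32687 and Gng10 without G4 library 1, Gm20775 without G4 library 2, Gm36995 without G3 library 2 and Pcdhgc4 without G3 library 3. Gm32687 and Tbc1d4 did not pass after removal of the trend (adjusted p 0.0520 and 0.0712), nor Gm32687 and Gm20775 when adjusted over every gene with a p (0.0518 each). The count at an unadjusted p under 0.05 ran from 505 after removal of the trend to 824 with no filter. The test of the difference from G2 against G1 called 1 gene at a total of at least 20 and when centred, and 0 at a total of at least 1000, a filter that leaves out Gm20775. Removing the trend turned 4 named genes near 0, mt-Rnr1 to 0.00 (-0.00415), mt-Rnr2 to 0.00312, Neb to 0.0415 and Smarca5 to 0.00458, and changed the sign of 8 of 50 list medians, among them complexes I and II to V, the proteasome and PPAR targets. Weighted means changed the sign of 6, a total of at least 1000 that of 1, and centring that of 0. No paired analysis was possible because the tables give comparisons and no label ties a library to a replicate number. Depth limits genes with a low total most, as the SE of 1.14 for Gm20775 shows beside 0.06 for Rpsa.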

Other observations

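Some genes were close to silent in single libraries. Among recovered genes, 15 had at most 2 normalised reads in one library and at least 50 in another. Gng10, a gamma subunit of G proteins, had 57, 58 and 73 reads in G3 and 40, 0 and 1 in G4. The pseudogene Gm6543 had 48, 44 and 91 in G3 and 1, 14 and 11 in G4. Gm12250, named like the others here after its values were seen, had 16, 20 and 17 reads in G3 and 68, 12 and 10 in G4. In G1 it had 2, 4 and 8 reads and in G2 it had 1, 2 and 1. G4 library 1, the library high in interferon genes, was also high in Gm12250.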
